A study of Homo sapiens with 6 samples.

Results

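MYC binding on chromosome 17 was compared between the short arm and the long arm in ONS76 cells, a long-established line grown from a human medulloblastoma. The sample titles and the study's methods for this experiment name the cells as ONS76. The study also engineered this line for inducible SOX2, and those sources do not state whether the engineered cells were used. Cells were kept in DMEM with 10% serum, and by the study's account SOX2 was not elevated for this experiment. Chromatin was immunoprecipitated with an antibody to MYC in 3 libraries and with normal IgG, the non-specific control, in another 3. No IgG list was analysed here. The methods describe immunoprecipitations from one batch of chromatin that were combined, and the sources used here do not say whether the replicates were separate cultures. The SD over replicates therefore measures the spread between libraries, which may be technical.

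Peaks were assigned to an arm by their summit (hg19). The short arm took summits below 22200 kb, and the long arm took those from 25800 kb to the last peak of the chromosome at 81152 kb. Replicates 1, 2 and 3 had 321, 202 and 211 peaks on the short arm. Their long arm peaks numbered 1288, 993 and 990 peaks. Another 7, 3 and 4 peaks lay between the arms and were kept apart. Together the arms held 1609 of the 24899 peaks of replicate 1, 1195 of the 16809 of replicate 2 and 1201 of the 17298 of replicate 3. Peaks of different replicates sharing at least 1 bp were joined into places, 341 on the short arm and 1445 on the long arm, of 27801 in all.

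MYC is a transcription factor of the basic helix-loop-helix leucine zipper class. It binds DNA as a dimer with MAX, mostly at E-box motifs in promoters and other open chromatin, so gene-rich regions tend to carry more MYC sites. In medulloblastoma, chromosome 17 is known for losses of the short arm and for isochromosome 17q, in which the long arm is gained. The sources used here do not say whether ONS76 cells carry either change, and the number of copies was not measured. In bulk chromatin, more copies of a region and more binding at each copy cannot be told apart from fragment numbers. The genes at these places are not named and no bases are shown, because the genome and annotation used here are of another build.

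For each peak, the fragments at the summit and the local background were worked out from its deposited fold and p-value. The local background is the number of fragments that the control library predicts at the summit. The peak caller starts from an even, genome-wide level and uses a higher value where the control exceeds it over the fragment length, over 1000 bp or over 10000 bp. The genome-wide level was 7.79, 5.84 and 4.76 fragments in replicates 1, 2 and 3, so replicate 1 was the deepest library. Dividing the local background by this level gives the relative background, and a value of 1 means that the control was at or below the genome-wide level. At that level a window of 10000 bp held 448, 415 and 375 control fragments, which gives an exact Poisson 95% interval of 0.909 to 1.097, 0.906 to 1.101 and 0.9002 to 1.105 times the level for 1 window. The interval covers counting error only.

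MYC peaks were sparser on the short arm. It had 14.5, 9.10 and 9.50 peaks per Mb in replicates 1, 2 and 3 (mean 11.02 ± 2.98, SD, n = 3). The long arm had 23.3, 17.9 and 17.9 peaks per Mb (mean 19.7 ± 3.09, SD, n = 3). The long arm was denser in each library, and the highest short arm value was below the lowest long arm value. The ratio of short to long arm was 0.621, 0.507 and 0.531 (exact two-sided permutation test that exchanges the arms within each of 3 replicates, p = 0.25). This is the smallest p that 3 pairs allow, so no comparison of the arms could pass a threshold of 0.05.

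The consensus, which are places found in at least 2 replicates, held 217 places on the short arm and 992 on the long arm. That is 9.77 places per Mb against 17.9, a ratio of 0.545. The short arm made up 28.6% of the length of both arms and held 17.9% of their consensus places. Neighbouring places were a median of 34100 bp apart on the short arm and 19566 bp apart on the long arm. Of the gaps between neighbours, 23.1% (50 of 216) on the short arm and 34.2% (339 of 991) on the long arm were under 10 kb. The widest gap was nevertheless on the long arm, at 3.47 Mb against 1.30 Mb. Consensus places had a median width of 655 bp on the short arm and 702 bp on the long arm. Gene density of the arms in this build was not available for comparison, so its part in the difference was not tested.

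The arms also differed in control background. On the short arm the median relative background was 1.05, 1.00 and 1.00 in replicates 1, 2 and 3 (mean 1.02 ± 0.028, SD, n = 3). On the long arm it was 1.48, 1.31 and 1.33 (mean 1.37 ± 0.091, SD, n = 3). All 3 long arm values were above all 3 short arm values. The ratio of short to long arm was 0.710, 0.763 and 0.752, a mean of 0.742 ± 0.028 (SD, n = 3; exact two-sided permutation test, p = 0.25). Because background cannot be listed below the genome-wide level, a lower short arm control would give the same ratio in replicates 2 and 3. In replicate 1 the short arm median lay above that level, so there a lower control could change the ratio.

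The share of peaks at the genome-wide level separated the arms further. It was 47.4%, 56.4% and 55.0% on the short arm, but 1.32%, 4.93% and 4.04% on the long arm. The window of 10000 bp, the widest, set the background at 21.5%, 24.3% and 23.2% of short arm peaks. It set 45.6%, 59.5% and 61.5% of those on the long arm. Over chromosomes 1 to 22 and X without 17, the median relative background was 1.15, 1.04 and 1.04, and 30.2%, 42.5% and 42.0% of peaks had the genome-wide level. The short arm lay below this remainder of the genome in each replicate and the long arm above it. Chromosome 16 had medians of 1.16, 1.04 and 1.04 and chromosome 19 had 1.25, 1.11 and 1.12. Chromosome 20 was above the long arm, at 2.07, 1.90 and 1.89. These are values side by side, with no test over peaks.

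**Figure D1:**
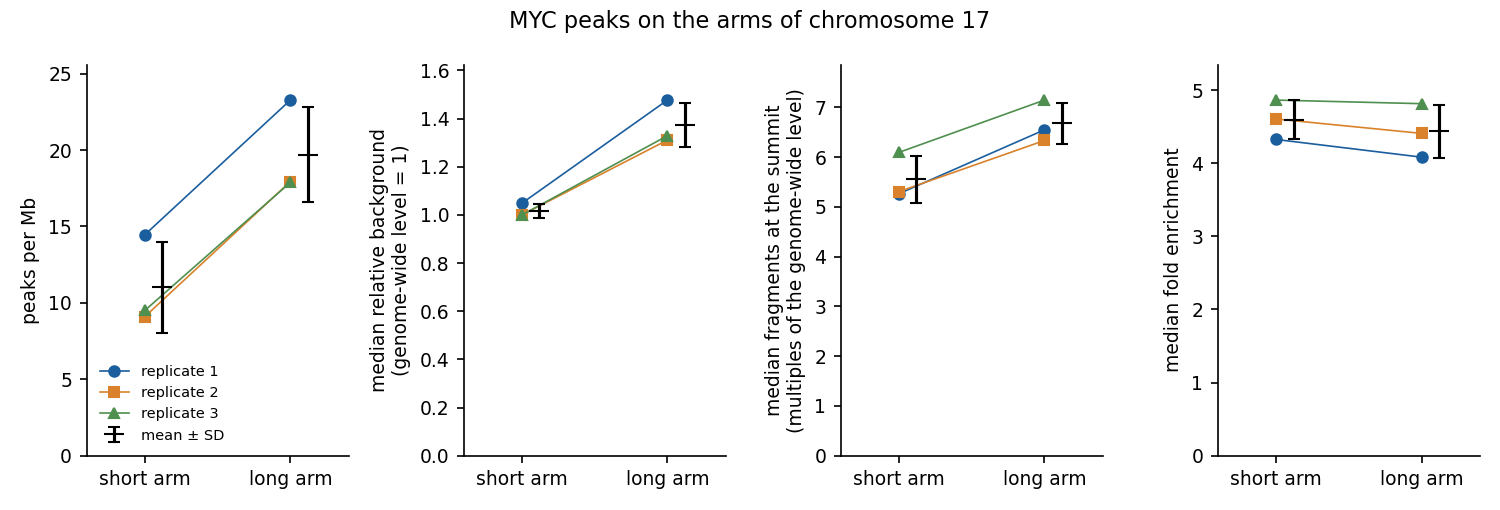
Peaks per Mb, median relative background, median fragments at the summit as multiples of the genome-wide level, and median fold enrichment on the short and long arm of chromosome 17. Coloured points joined by lines are the 3 MYC replicates and black marks are the mean ± SD; density, background and fragments rise from short to long arm in each replicate, whereas fold enrichment falls slightly, from a mean of 4.60 to 4.44.

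Summits on the short arm held fewer fragments. The median was 41, 31 and 29 fragments on the short arm and 51, 37 and 34 on the long arm in replicates 1, 2 and 3. As multiples of the genome-wide level of each list, these were 5.27, 5.31 and 6.10 against 6.55, 6.34 and 7.15. The short arm was lower in 3 of 3 replicates, with ratios of 0.804, 0.838 and 0.853 (mean 0.832 ± 0.025, SD, n = 3; exact two-sided permutation test, p = 0.25). The lowest single summit held 20, 17 and 14 fragments on the short arm and 20, 17 and 15 on the long arm, but the 10th percentile was 27, 23 and 19 against 32, 25 and 22, lower on the short arm in each replicate. A peak over a lower background passes the caller with fewer fragments, and the part of this in the lower median was not tested. With background subtracted, the median was 4.14, 4.31 and 4.95 genome-wide levels on the short arm and 4.96, 5.04 and 5.82 on the long arm.

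Fold enrichment as listed, which divides the fragments by the local background, was nearly level between the arms. For 47.4%, 56.4% and 55.0% of short arm peaks the divisor was the genome-wide level, so a control below it would not raise their fold. On the long arm this held for 1.32%, 4.93% and 4.04%. Near-equal medians therefore do not show equal enrichment over the control itself. Its median was 4.32, 4.60 and 4.86 on the short arm and 4.08, 4.41 and 4.81 on the long arm. The short arm was higher in 3 of 3 replicates, but only by a ratio of 1.06, 1.04 and 1.01 (mean 1.04 ± 0.025, SD, n = 3; exact two-sided permutation test, p = 0.25). At places found in all 3 replicates the ratio was 1.09, 0.972 and 1.02, with no common direction. Divided by the genome-wide level instead of the local background, the ratio turned to 0.836. The arms thus differed in fragments and in background in the same direction, and the direction of the fold depended on which background was used.

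The background was then followed along the chromosome in windows of 1 Mb. It did not step at the middle of the chromosome. It was listed at the genome-wide level, meaning at or below it, from the tip of the short arm to about 11 Mb. It then rose to a low step that continued across the middle, and rose again near 37 Mb on the long arm. The positions 11 Mb and 37 Mb were chosen after these values were seen, and the stretches they bound are given as a description with no test. The plot of background along the chromosome shows these steps.

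**Figure D2:**
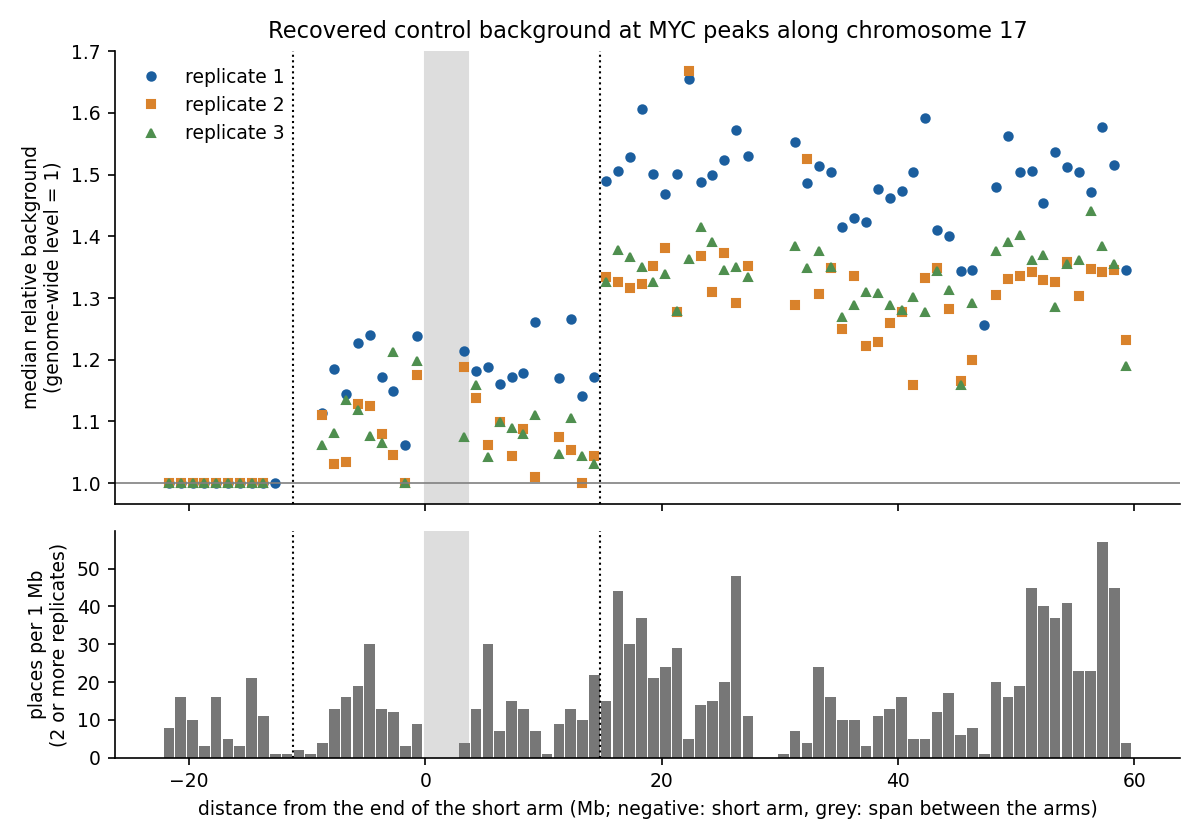
Top, median relative background of the MYC peaks in each 1 Mb window with at least 3 peaks in that replicate, by distance from the end of the short arm in Mb; colours and shapes are the 3 replicates and the grey line is the genome-wide level. Bottom, places found in at least 2 replicates per window. The grey band is the span between the arms and dotted lines mark 11 Mb and 37 Mb. Background stays at 1 on the outer short arm, lies between 1.00 and 1.27 in windows with 10 or more peaks on both sides of the middle, and lies at 1.25 or above in such windows on the outer long arm.

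The outer short arm, up to 11 Mb, held 141, 82 and 90 peaks in replicates 1, 2 and 3. Of these, 96.5%, 97.6% and 97.8% were listed at the genome-wide level, so the control there was at or below it. The window of 10000 bp set the background at 0 of these peaks in each replicate. The stretch was bounded by this background, so these shares describe the choice. The last consensus place at the lower level lay from 10600260 to 10601130, with a relative background of 1.00 in each replicate. The next place, from 11900200 to 11901132, had 1.24, 1.06 and 1.00. No consensus place lay in the 1.30 Mb between them, so the position of the first step is known no better than that.

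The inner short arm, from 11 Mb, held 180, 120 and 121 peaks with a median relative background of 1.17, 1.08 and 1.103. The inner long arm, up to 37 Mb, held 180, 140 and 142 peaks with medians of 1.18, 1.06 and 1.08. The stretches on either side of the middle differed by less than the replicates of either one. The ratio of inner short to inner long arm was 0.992, 1.02 and 1.03, a mean of 1.01 ± 0.018 (SD, n = 3), against 0.742 between whole arms. The few peaks between the arms had medians of 1.24, 1.24 and 1.07.

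The outer long arm, from 37 Mb, held 1108, 853 and 848 peaks. Their median relative background was 1.504, 1.33 and 1.35, and 0.722%, 1.41% and 0.943% were at the genome-wide level. The outer long arm was 1.27, 1.26 and 1.26 times the inner long arm. In windows of 1 Mb with at least 10 peaks in each replicate, the 30 windows of the outer long arm ranged from 1.40 to 1.61 in replicate 1, from 1.25 to 1.38 in replicate 2 and from 1.27 to 1.44 in replicate 3. The 7 windows of the inner long arm ranged from 1.14 to 1.27, from 1.00 to 1.14 and from 1.03 to 1.16, and the 6 windows of the inner short arm from 1.14 to 1.24, from 1.03 to 1.13 and from 1.07 to 1.21. Within each replicate these windows of the outer long arm did not overlap those of the inner stretches. The cuts were chosen from these same medians, so the separation describes the choice. Windows with fewer peaks could overlap. The one from 67 Mb to 68 Mb had 1.16 in replicate 3, on 5 peaks.

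The second step was narrow. In the window from 36 Mb to 37 Mb the median was 1.17, 1.04 and 1.03, on 30, 24 and 22 peaks. In the window from 37 Mb to 38 Mb it was 1.49, 1.33 and 1.33, on 19, 16 and 17 peaks. Single peaks vary more than windows do. The place just below the step, from 36981369 to 36981912, had 2.03, 1.099 and 1.199, and the one just above it, from 37009205 to 37010294, had 1.23, 1.00 and 1.13.

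The density of consensus places rose from stretch to stretch. Consensus places per Mb were 8.64 on the outer short arm, 10.9 on the inner short arm, 12.5 on the inner long arm and 19.3 on the outer long arm, a ratio of 2.23 from the last to the first. Between the inner stretches the ratio of short to long arm was 0.871, against 0.545 between whole arms. In replicate 1 both inner stretches held 16.1 peaks per Mb, whereas in replicates 2 and 3 the inner long arm held more. Neighbouring consensus places were a median of 31552.5 bp apart on the inner short arm and 35472.5 bp apart on the inner long arm. Median fold enrichment was lower on the inner short arm than on the inner long arm in 3 of 3 replicates, with ratios of 0.920, 0.958 and 0.940, and summit fragments had ratios of 0.978, 0.970 and 0.984. The outer long arm was uneven within itself. The 1 Mb window from 79 Mb held 57 consensus places and the one from 48 Mb held 48. The widest gap within either arm lay in the same stretch, and the gap across the middle was not measured.

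**Figure D3:**
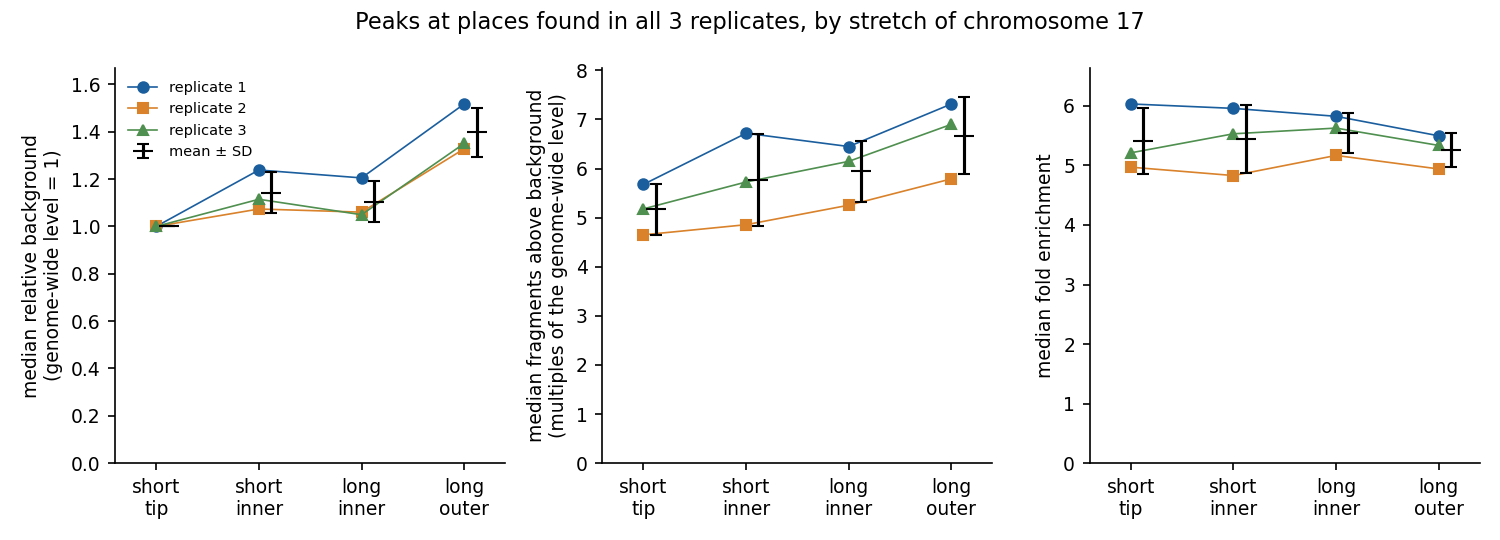
Peaks at places found in all 3 replicates in 4 stretches of chromosome 17, with the median relative background, the median fragments above background as multiples of the genome-wide level, and the median fold enrichment; short tip is the outer short arm up to 11 Mb and long outer is the long arm from 37 Mb. Points joined by lines are the replicates and black marks are the mean ± SD. Background, by which the stretches were bounded, and fragments above background are highest on the outer long arm in each replicate. Fold enrichment, at these places, shows no such order.

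Fragments above background were compared at places found in all 3 replicates, where every library had called the peak. The median, in genome-wide levels, was 5.68, 4.65 and 5.18 on the outer short arm and 7.32, 5.79 and 6.90 on the outer long arm. The ratio of outer long to outer short arm was 1.29, 1.25 and 1.33, a mean of 1.29 ± 0.044 (SD, n = 3). For the local background at the same places it was 1.52, 1.33 and 1.35, a mean of 1.40 ± 0.103 (SD, n = 3). For fold enrichment it was 0.911, 0.994 and 1.02, a mean of 0.976 ± 0.058 (SD, n = 3). MYC fragments above background were thus higher on the outer long arm, and the ratio of fold enrichment at these places had no common direction. The stretches were bounded by their background, so the background ratio describes that choice. A peak over a higher background needs more fragments to pass the caller, and the part of this was not tested. At these places 95.5%, 97.1% and 97.1% of outer short arm peaks had the genome-wide level as divisor of the fold. Over all peaks of the stretches, not only those at shared places, the fold ratio of outer long to outer short arm was 0.880, 0.928 and 0.971. The ratio of outer to inner long arm was 0.908, 0.909 and 0.903, also below 1 in each replicate.

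Sharing between replicates was compared by the number of libraries with a peak at a place. On the short arm 160 of 341 places (46.9%) were found in all 3 replicates, and on the long arm 742 of 1445 (51.3%), against 45.0% of all places of the genome. At least 2 replicates had a peak at 63.6% of short arm places and at 68.7% of long arm places, against 62.4% of all. By either count the short arm was close to the share over the whole genome and the long arm above it. Chromosome 19 was slightly above the long arm by both counts, at 51.9% and 69.8%. Chromosome 16 had 48.9% and 65.4%, and chromosome 20 had 47.2% and 62.0%. Of the consensus, 73.7% on the short arm and 74.8% on the long arm were in all 3 replicates.

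Places found in replicate 1 alone numbered 104 on the short arm, which is 30.5% of its places, and 307 on the long arm, which is 21.2%, against 27.8% over the whole genome. Replicates 2 and 3 alone had 7 and 13 places on the short arm and 78 and 68 on the long arm. Replicate 1 exceeded the other libraries in peak number on both arms. On the short arm it had 1.59 times the peaks of replicate 2 and 1.52 times those of replicate 3, against 1.30 times both on the long arm. Over the whole series, replicates 1, 2 and 3 had 24899, 16809 and 17298 peaks. Replicate 1 was also the deepest library, and the part of depth in this was not tested.

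The share of peaks that fell at places found in all 3 replicates was 50.2%, 83.7% and 78.7% on the short arm in replicates 1, 2 and 3. The long arm had 58.5%, 79.1% and 78.6%. Over chromosomes 1 to 22 and X without 17 it was 50.2%, 77.7% and 75.7%. The difference, short minus long arm, was -8.31, 4.61 and 0.087 percentage points, a mean of -1.20 ± 6.55 (SD, n = 3; exact two-sided permutation test, p = 1). The difference had no common direction and was smaller than its spread. Against the inner long arm alone, the short arm was lower in 3 of 3 replicates, with differences of -11.5, -0.622 and -3.72 percentage points.

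**Figure D4:**
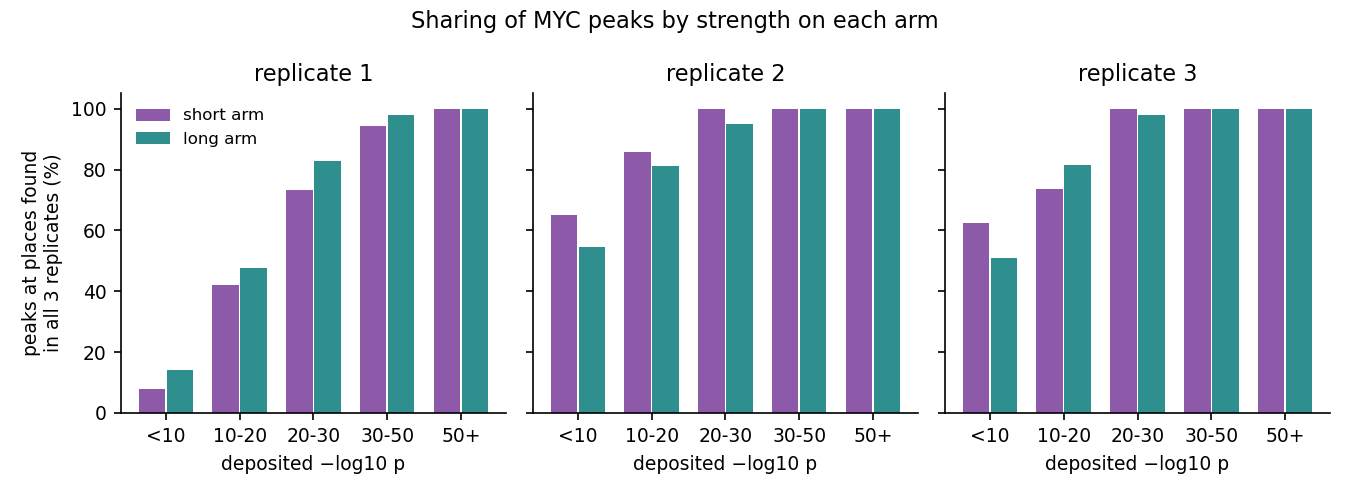
Share of MYC peaks at places found in all 3 replicates, by the deposited −log10 p of the peak, for the short and long arm in each replicate. Bars are percentages of the peaks in that class and carry no error, and at a −log10 p of 50 or more every bar reaches 100%.

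Sharing depended on the strength of the peak on both arms. Among peaks with a −log10 p below 10, 7.69%, 65.0% and 62.3% of those on the short arm and 14.1%, 54.6% and 51.0% of those on the long arm were at places found in all 3 replicates. The short arm was lower in replicate 1 and higher in replicates 2 and 3. At a −log10 p of 50 or more, all 43, 9 and 10 short arm peaks and all 221, 106 and 97 long arm peaks were at such places. These strong peaks were 13.4%, 4.46% and 4.74% of the short arm and 17.2%, 10.7% and 9.80% of the long arm.

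Where both libraries of a pair had called the place, fold enrichment was reproducible on both arms. Spearman's rho across places was 0.821, 0.808 and 0.788 on the short arm for replicates 1 and 2, 1 and 3, and 2 and 3, over 185, 191 and 161 places. The long arm had 0.832, 0.823 and 0.845 over 849, 862 and 765 places. Places of one library share its depth and are not independent, so these are descriptions with no p. The summits called at one place differed by a median of 38, 39 and 38 bp on the short arm and 31, 33 and 35 bp on the long arm.

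The strongest places of the short arm were weaker than those of the long arm. The first short arm place, from 17494476 to 17495538 on the inner stretch, had a fold enrichment of 31.3, 28.6 and 31.9 in replicates 1, 2 and 3 (mean 30.6 ± 1.72, SD, n = 3) on 301, 197 and 217 fragments. It stood apart from the rest of the arm in each library. The next was from 7475608 to 7476297, with 22.9, 14.5 and 19.98 (mean 19.1 ± 4.27, SD, n = 3). The place from 17108675 to 17110327 had 22.1, 15.9 and 17.9 (mean 18.6 ± 3.21, SD, n = 3). These did not differ beyond their spread. The last of the 5, from 5371979 to 5372527 and from 7210277 to 7212122, had means of 16.2 ± 2.82 and 15.7 ± 0.996 (SD, n = 3) and overlapped each other too.

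On the long arm the first place, from 61850641 to 61851822, had a fold enrichment of 58.4, 41.7 and 49.8 (mean 49.96 ± 8.37, SD, n = 3) on 707, 354 and 352 fragments. The place from 49230547 to 49231651 had 44.5, 38.7 and 42.0 (mean 41.7 ± 2.90, SD, n = 3). Both were above the first short arm place in each replicate. The place from 34889996 to 34891678, on the inner stretch, had 29.7, 37.9 and 42.7 (mean 36.8 ± 6.60, SD, n = 3). Its low value in replicate 1 went with a relative background of 1.68 there, against 1.03 and 1.00 in replicates 2 and 3, on 417, 265 and 245 fragments. The last of the 5, from 79828081 to 79830245 and from 42147728 to 42148675, had means of 34.9 ± 1.56 and 34.7 ± 5.05 (SD, n = 3), which did not differ beyond their spread. Of the 10 pairs that 5 places form, 6 on each arm were ranked alike by every library.

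**Figure D5:**
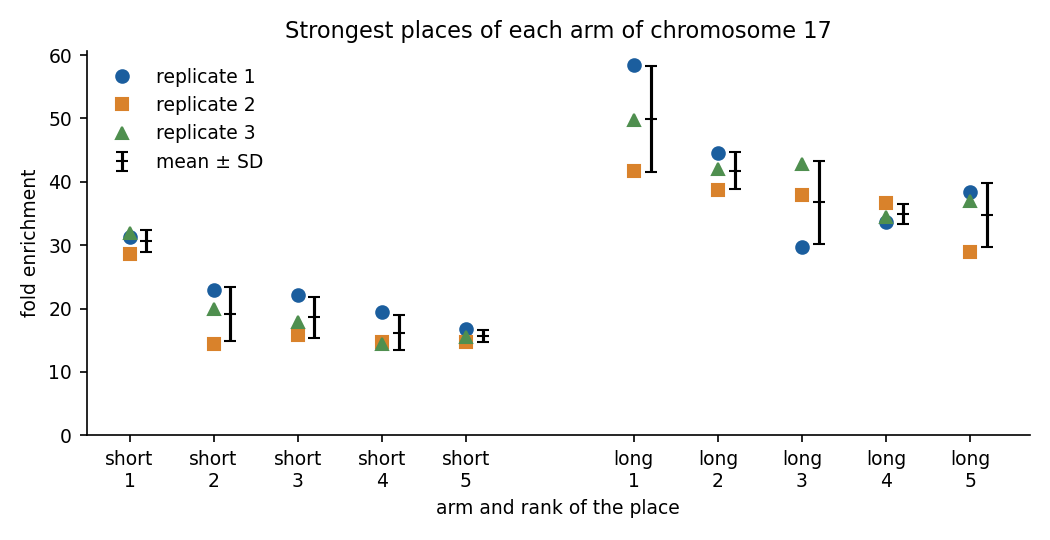
Fold enrichment of the 5 strongest places of each arm among those found in all 3 replicates, ranked by geometric mean. Coloured points are the replicates and black marks the mean ± SD; the first place of the short arm, with a mean of 30.6, is below the first of the long arm, with a mean of 49.96, in each replicate.

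The long arm had more places to draw its strongest from. Counted as a share, a geometric mean fold of at least 10 was reached by 15 of 160 short arm places (9.38%) and 88 of 742 long arm places (11.9%) found in all 3 replicates. A fold of at least 20 was reached by 1 short arm place (0.625%) and 17 long arm places (2.29%). Only 1 and 5 places reached 30, which were 0.625% and 0.674% of those on each arm. Of the peaks at places found in all 3 replicates, 17.4%, 6.51% and 12.7% on the short arm had a fold of at least 10. The long arm had 14.3%, 10.3% and 13.0%. Chromosomes 1 to 22 and X without 17 had 15.0%, 9.28% and 11.6%. By this share the short arm was above the long arm in replicate 1 and below it in replicates 2 and 3.

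Among short arm places found in all 3 replicates, the 3 with the highest background by the lowest replicate lay close to the arm's inner end. At the place from 21314093 to 21314634 the relative background was 2.73, 3.20 and 3.38 in replicates 1, 2 and 3. Its fold enrichment was 2.83, 2.54 and 2.40, although the summit held 62, 49 and 40 fragments. The place from 21219866 to 21220422 had a background of 2.39, 2.34 and 2.38 and a fold enrichment of 7.46, 6.26 and 5.68. The last of the 3, from 21190772 to 21191478, had 1.35, 1.30 and 1.52. The first and second stood well above the median of the inner short arm, which was at most 1.17 in any replicate.

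By the same rule, the highest backgrounds of the long arm were at a pair of neighbours. They were 2.39, 1.79 and 1.80 from 44849347 to 44849928, and 2.03, 2.24 and 1.72 from 44848150 to 44848925. The place from 64657909 to 64658413 had 1.68, 1.96 and 2.32. None of these 3 places had a mean fold enrichment above 3.66, well below the strongest places of the arm.

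The widest short arm places found in all 3 replicates were 2703 bp, from 2302800 to 2305502, and 2171 bp, from 17596200 to 17598370. The first owed its width to replicate 1, where the peak was 2696 bp against 538 bp and 478 bp in replicates 2 and 3. On the long arm the widest were 3436 bp, from 73871608 to 73875043, and 3278 bp, from 42294946 to 42298223. The former was wide in each library, at 3395, 3406 and 2312 bp. The latter was wide in replicate 3 alone, at 3264 bp against 705 bp and 512 bp.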

How the data were processed

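MYC ChIP-seq of ONS76 cells was analysed from 1 deposited peak list per MYC library, with groups and replicate numbers taken from the labels. Per the study's methods, the authors aligned reads to hg19 with Bowtie2 and ran MACS2 separately on every library, with a q-value limit of 0.05. The sources used here do not give the versions, the treatment of duplicates or the library that served MACS2 as control. The deposited lists hold a fold enrichment at the summit, which is a ratio with 1 added to both terms, −log10 p-values and −log10 q-values, and a score derived from the q-value by the authors' peak caller. The authors did not scale these values between replicates. Positions are given in hg19 and start at 1.

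Fragments and local background at each summit were the pair of values that gave both the fold and the −log10 p under a Poisson model, within 0.001, which was found for 100% of peaks. The lowest background of a list was its genome-wide level, and peaks within 1.0005 times of it were counted as at that level. The lists give no read totals. Relative to replicate 3, replicates 1 and 2 were 1.49 and 1.21 times as deep. Recovery was checked on simulated data with known answers. Merging was checked only on narrow simulated peaks set far apart, so its behaviour with close or wide peaks was not tested.

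The arms were compared for 5 results (density, relative background, summit fragments, fold enrichment and sharing) by exact two-sided permutation over the replicates, in which the arms of 1 replicate form a pair. The smallest p is 0.25, so no adjustment over the 5 results was made. The members, the lists and the tests were chosen with earlier results of these data known. The named places are, on each arm and among places found in all 3 replicates, the 5 with the highest geometric mean fold, the 3 with the highest relative background by the lowest replicate, and the 2 widest. The same rule held a list of genes, which could not be placed in hg19. Alternatives were stricter q-values (0.01 and 0.001), lists cut to the same length, other rules of overlap, leaving out each replicate, leaving out 5 Mb beside the middle, and places of all 3 replicates; the arms cut at 11 Mb and 37 Mb were added after the data were seen. The analysis used Python 3.11.15 with numpy 2.4.6, pandas 2.3.3 and scipy 1.17.1.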

Additional observations from a re-analysis of the deposited data

How the results depend on the processing

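Density and summit fragments kept their direction under every setting, also with the cuts named below. Relative background turned only with both cuts together. The ranges and counts in this paragraph leave the cuts out. The ratio of short to long arm ranged from 0.496 to 0.588 for density, from 0.722 to 0.832 for background and from 0.792 to 0.847 for fragments, and leaving out a replicate gave 0.525 to 0.552, 0.731 to 0.758 and 0.821 to 0.845. Fold enrichment kept its direction in 9 of 10 and turned to 0.836 with the genome-wide level as denominator, which removes the local background by construction. Leaving out a replicate gave 1.03 to 1.05. Sharing turned from -1.20 to 1.12 percentage points with equal numbers of peaks and to 0.388 within classes of −log10 p, and leaving out a replicate gave -2.73 to 0.290, positive without replicate 1. The cause was not tested.

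The cuts at 11 Mb and 37 Mb were chosen after seeing the data. With both, background turned from 0.742 to 1.01, density moved from 0.545 to 0.871 and fold enrichment turned from 1.04 to 0.939. With the long arm alone cut at 37 Mb, density was 0.782 and fold enrichment 0.958. Sharing was 0.148 percentage points with the short arm alone cut, -5.28 with the long arm alone cut and -3.93 with both, the last 2 negative in 3 of 3 replicates.

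No paired analysis was possible between MYC and IgG libraries of the same number because only the MYC ones entered a result. The arms of 1 library were compared as a pair throughout. With 3 libraries no p can fall below 0.25, and with 2 none below 0.5. How far a control level lay under the genome-wide level cannot be seen in these values. A place not called in a less deep library is not shown to be unbound.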
